A study of Mus musculus with 16 samples.

Results

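The comparison was between mesenchymal stromal cells (mSC) of mouse muscle taken 8 h and 4 h after an injection of CGRP, 4 libraries at each time. Members were chosen by label alone: the 8 libraries labelled CGRP 4 h or CGRP 8 h of 16 in the series. Over all 16 libraries 13949 of 52997 gene symbols had enough reads to be tested. The cells came from the hindlimb muscle of 8-week-old C57BL/6 mice that received CGRP or phosphate-buffered saline (PBS) into the peritoneal cavity, and no genetic change is named for any group. The 4 PBS libraries at 4 h and the 4 at 8 h gave the change over the same hours without CGRP. Each library was made from 1000 cells sorted in a double pass. Whether a biological replicate was 1 mouse or a pool, the dose, the sorting markers and the collection days are not known from the sources at hand. The p-values therefore measure the spread between these libraries.

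CGRP (calcitonin gene-related peptide) is a neuropeptide of sensory nerve endings that is cleared from tissue quickly. Its receptor pairs the calcitonin receptor-like receptor (Calcrl) with the accessory protein Ramp1. It couples mainly to the stimulatory G protein, so that cyclic AMP rises, protein kinase A is activated and the factor CREB switches on genes with cyclic AMP response elements. Muscle mSC lie between the fibres, make the extracellular matrix and release cytokines such as interleukin-33 that act on immune cells of the muscle.

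The CGRP libraries held 7547621 to 9569539 counts at 4 h and 6373713 to 9600027 at 8 h. The number of genes with a read was 24376 in CGRP 4 h replicate 3 and 21138 to 22109 in the other 7. PBS 4 h replicate 4 and PBS 8 h replicates 1 and 4 also had more detected genes than the rest. Defining stromal transcripts were abundant, and the 14 stromal markers summed to 153090 to 162702 CPM (counts scaled to a common library size with TMM) at 4 h and 148392 to 170096 at 8 h. White blood cell markers were low at both times: the 15 macrophage and myeloid markers summed to 6.50 to 9.42 CPM at 4 h and 5.21 to 8.72 at 8 h, and the 12 lymphocyte markers to at most 1.38 CPM. The 7 erythroid markers, mostly haemoglobin genes, summed to 47.6 CPM in CGRP 4 h replicate 3 and 44.3 in CGRP 8 h replicate 4, against 0.970 to 3.02 in the other 6 CGRP libraries, and to 44.6 in PBS 4 h replicate 4. Their part in the results was not tested. Among the 12 endothelial markers, which summed to 97.0 to 121 CPM at 4 h and 83.7 to 112 at 8 h, most of the signal was Tek, and Pecam1, Cdh5 and Kdr were each at a group mean of 1.26 CPM or less. The 12 pericyte and smooth muscle markers summed to 92.9 to 110 CPM at 4 h and 145 to 211 at 8 h, against 136 to 185 and 163 to 219 after PBS. Most of these sums came from Cspg4 and Des. After CGRP the group means of Cspg4 were 34.9 and 89.7 CPM, those of Des 49.9 and 55.6 and those of Rgs5 0.146 and 0.142.

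Between 4 h and 8 h after CGRP, 586 genes rose and 426 fell, 1012 of the 13949 tested (7.26%; 4.20% higher and 3.05% lower). Over the same hours after PBS 37 rose and 35 fell, 72 in all (0.516%; 0.265% higher and 0.251% lower). A gene was called, and is said to have risen or fallen, at a Benjamini-Hochberg adjusted p under 0.05 in edgeR's quasi-likelihood test over all 13949 genes. The typical change was modest: the median size of a called change was 0.60 on the log2 scale, and 100 of the risen and 105 of the fallen genes changed by at least 1 (2-fold). The median over all genes was -0.01 after CGRP and 0.00 after PBS. At an unadjusted p under 0.05 there were 2783 genes after CGRP and 1817 after PBS. The difference between the time changes, tested gene by gene in the same model, was called for 156 genes (1.12%): 97 changed more upward after CGRP than after PBS (0.695%) and 59 more downward (0.423%). The libraries of the 2 times did not overlap for 12.4% of genes after CGRP and for 7.52% after PBS. Leaving out 1 library lowered the counts after CGRP to between 385 and 547 risen and between 281 and 406 fallen genes, both lowest without CGRP 8 h replicate 2. The PBS counts depended much more on single libraries, from 8 risen and 7 fallen at the lowest to 208 risen and 72 fallen without PBS 4 h replicate 4. Without the 4 libraries with the most detected genes the counts after CGRP were 490 and 374.

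**Figure D1:**
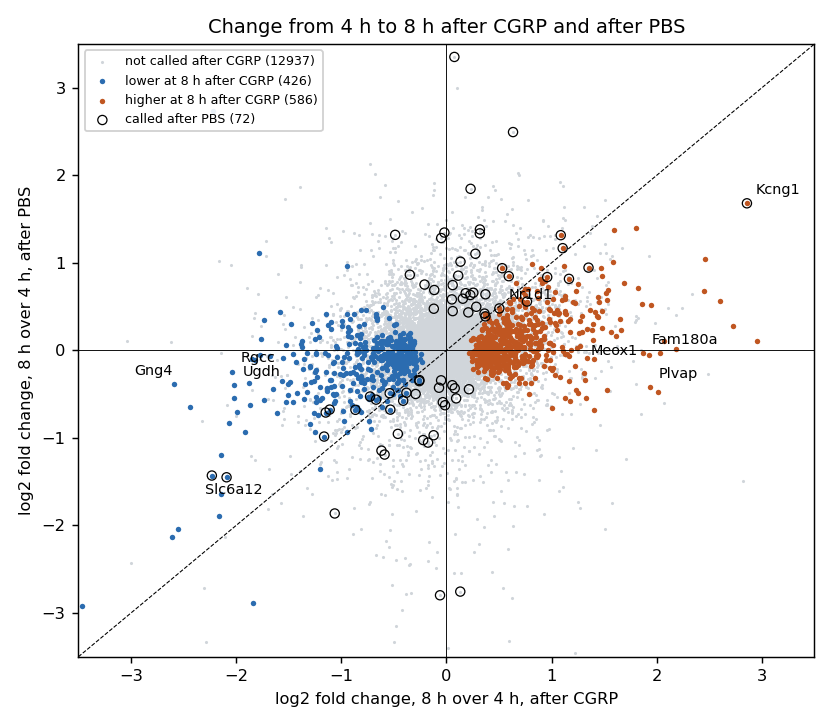
Each point is 1 gene, with the log2 fold change of 8 h over 4 h after CGRP on the horizontal axis and after PBS on the vertical axis. Blue points (426) were lower and orange points (586) higher at 8 h after CGRP, black rings mark the 72 genes called after PBS, and the dashed line marks equal change. Most coloured points lie near 0 on the PBS axis. The axes end at 3.5 in each direction, and 16 genes lie outside them, of which 2 were called after CGRP.

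Most of the genes called after CGRP were not called after PBS, whose list was short. Of the 72 genes called after PBS, 26 were called in the same direction after CGRP (12 of 37 that rose, 32.4% of the PBS list and 2.05% of the CGRP list, and 14 of 35 that fell, 40.0% and 3.29%), and 0 in the opposite one. Those shares of the PBS list stand beside the 4.20% and 3.05% of all genes that rose and fell after CGRP, and 58 of the 72 had the same sign after CGRP. As a description over 13949 genes, which are not independent, the 2 sets of log2 fold changes had a Pearson r of 0.18 and a Spearman rho of 0.15. The genes called after CGRP moved little after PBS: the median PBS change was 0.06 for the 586 that rose and -0.12 for the 426 that fell. Kcng1, a subunit of voltage-gated potassium channels, had the highest fold change of the named genes after CGRP and was called after PBS as well (log2 fold changes 2.86 ± 0.34 and 1.68 ± 0.29, SE). Slc6a12, a betaine and GABA transporter, fell after both (-2.23 ± 0.22 and -1.43 ± 0.26), and so did Plac8 (-2.09 ± 0.20 and -1.45 ± 0.22). The complement gene C3 fell from 1945, 1657, 1933 and 2065 CPM in CGRP 4 h replicates 1 to 4 to 921, 1015, 1081 and 1154 at 8 h (log2 fold change -0.87 ± 0.11, adjusted p = 5.49e-05), and after PBS it fell by 0.68 ± 0.11 (adjusted p = 0.00656). Nr1d1, a repressor of the circadian clock, rose after both, by 0.50 ± 0.11 and 0.48 ± 0.11. The difference between the 2 time changes was not called for Kcng1, Slc6a12, Plac8, C3 or Nr1d1, with adjusted p-values from 0.214 to 0.963.

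Whether a change led back towards the PBS level was read from the contrast of CGRP with PBS at 4 h. At that time 1094 genes were higher (7.84%) and 1168 lower (8.37%, 16.2% in either direction) after CGRP than after PBS. A gene was counted as fading if it was higher at 4 h and then fell, and as recovering if it was lower at 4 h and then rose. These contrasts share the CGRP 4 h libraries, so a library that is high or low by chance enters both, and the counts describe the change without testing it. In all, 232 genes faded, 54.5% of those that fell, and 405 recovered, 69.1% of those that rose. Another 191 fell and 180 rose with no call at 4 h, 3 fell further and 1 rose further. At 8 h 190 of the 232 fading genes were not called against PBS, 41 were still higher and 1 was lower. Of the 405 recovering genes 336 were not called at 8 h, 57 were still lower and 12 were higher. A missing call at 8 h does not show that the PBS level had been reached. The median difference from PBS of the fading genes was 0.70 at 4 h and 0.13 at 8 h on the log2 scale, and that of the recovering genes -0.65 and -0.09. The change after PBS over the same hours had medians of -0.08 and 0.05. The test of the difference in time changes called 45 of the 232 and 74 of the 405. Without CGRP 4 h replicate 4 the count of fading genes was 142, and without CGRP 4 h replicate 1 that of recovering genes was 265. It was 209 and 338 without the 4 libraries with the most detected genes.

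Seen from the 4 h response, most genes had no call for a change over time. Of the 1094 genes higher at 4 h, 861 were not called between the times after CGRP, and of the 1168 lower ones 760 were not. The comparisons of CGRP with PBS at 4 h and at 8 h share no library. At 8 h 698 genes were higher (5.00%) and 512 lower (3.67%), 8.67% in either direction. Both times had 324 of the higher genes (29.6% of the 4 h list and 46.4% of the 8 h list) and 233 of the lower ones (19.9% and 45.5%). A list chosen for its calls at 1 time has a larger median at that time by the choice alone. The medians of the 4 h lists were 0.64 and -0.58 at 4 h and 0.31 and -0.22 at 8 h. Read the other way, those of the 8 h lists were 0.54 and -0.59 at 8 h and 0.35 and -0.38 at 4 h. Without the 4 libraries with the most detected genes, the 8 h counts were 104 higher and 87 lower. That setting kept only replicates 2 and 3 of PBS 8 h, and the part of the smaller number of libraries in these counts was not tested. The share of higher genes among the calls moved with the scaling, from 48.4% to 60.2% at 4 h and from 57.7% to 71.7% at 8 h without a scaling factor, and it was 39.8% and 45% with upper-quartile scaling.

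The 8 genes of CGRP and its receptors, with the related amylin and adrenomedullin parts, did not move together: 2 fell (Calcb and Calcrl) and 1 rose (Ramp2), with a median of 0.20 against -0.01 over all genes. Calcb, which encodes the beta form of CGRP, held 4.37, 6.65, 8.42 and 8.25 CPM in the 4 h replicates and 1.11, 0.970, 1.87 and 1.99 at 8 h. The 2 times did not overlap, and the log2 fold change was -2.22 ± 0.53 (SE, adjusted p = 0.0118). In PBS libraries Calcb was nearly absent, with 1 count over the 4 libraries at 4 h and 8 at 8 h, 7 of them in replicate 3. Calca, the gene of the alpha form, held 70 counts over the CGRP libraries at 4 h and 109 at 8 h, with 70 of the latter in replicate 2 (log2 fold change 0.58 ± 0.65, adjusted p = 0.687, and -0.36 without that replicate). Isoforms were not separated, so the peptide that the Calca reads stand for is not shown. Calcrl, the receptor itself, fell from 71.9 ± 7.59 to 51.7 ± 4.02 CPM (SD, n = 4; log2 fold change -0.48 ± 0.12, adjusted p = 0.0137), and the adjusted p was 0.0549 without CGRP 8 h replicate 3. Calcrl had been higher after CGRP than after PBS at 4 h (0.71 ± 0.12) and the difference at 8 h was 0.29 ± 0.12. Ramp2, which steers the receptor towards adrenomedullin, rose from 72.4 ± 9.23 to 105 ± 18.7 CPM (0.54 ± 0.12, adjusted p = 0.00761). Ramp1 was at 95.3 ± 3.05 and 111 ± 23.2 CPM with no call (0.21 ± 0.15, adjusted p = 0.492), and Ramp3, which also serves adrenomedullin, at 3.28 ± 0.904 and 1.13 ± 0.480 (-1.52 ± 0.58, adjusted p = 0.128).

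Galanin (Gal), a neuropeptide, held 120, 41.7, 97.0 and 89.6 CPM in CGRP 4 h replicates 1 to 4 and 22.2, 40.3, 13.6 and 21.1 at 8 h. All 8 h values lay below all 4 h values, though 4 h replicate 2 (41.7 CPM) and 8 h replicate 2 (40.3 CPM) nearly met. The log2 fold change was -1.84 ± 0.49 with an adjusted p of 0.0384, and the call was lost without CGRP 4 h replicate 1, 3 or 4 or CGRP 8 h replicate 1, 3 or 4, with an adjusted p of up to 0.112. It was also lost with DESeq2 (adjusted p = 0.323), without a filter on low counts, in a fit of the CGRP libraries alone and without the 4 libraries with the most detected genes, and over all alternatives the adjusted p ran from 0.00795 to 0.323. Gal was still far above PBS at 8 h, where the PBS mean was 0.101 CPM. Il33, the interleukin of mSC, fell from 442, 632, 763 and 949 CPM to 376, 199, 188 and 375 (-1.29 ± 0.35, adjusted p = 0.0437). This call too moved with the processing. It was lost on leaving out any of the 8 CGRP libraries except 4 h replicate 1, with an adjusted p of up to 0.132. It was also lost without a filter on low counts, in a fit of the CGRP libraries alone and without the 4 libraries, and over all alternatives the adjusted p ran from 0.00467 to 0.145. The difference of Il33 from PBS was 1.60 ± 0.35 at 4 h and 0.49 ± 0.35 at 8 h.

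The 4 promoters printed here show the sequence elements that the fading and recovering pathways are known for. Each is the called member with the smallest p that holds the motif, 200 bases before to 30 after the RefSeq start on GRCm38.p6, read 5′ to 3′, with the motif in capitals. Both strands were searched, and the printed motifs do not overlap. In Dusp1 the capitals mark a full cyclic AMP response element (TGACGTCA), in Socs3 a STAT site (TTCNNNGAA), in Mt1 3 cores of the metal response element (TGCNCNC) and in Msmo1 a sterol response element (TCACNCCA).
Dusp1 (chr17:26508443-26508672, reverse strand): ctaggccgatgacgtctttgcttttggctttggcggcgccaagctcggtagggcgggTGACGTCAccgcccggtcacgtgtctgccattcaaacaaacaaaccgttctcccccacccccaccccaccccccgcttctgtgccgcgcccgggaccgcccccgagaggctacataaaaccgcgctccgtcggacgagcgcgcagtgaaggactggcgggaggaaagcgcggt
Socs3 (chr11:117969337-117969566, reverse strand): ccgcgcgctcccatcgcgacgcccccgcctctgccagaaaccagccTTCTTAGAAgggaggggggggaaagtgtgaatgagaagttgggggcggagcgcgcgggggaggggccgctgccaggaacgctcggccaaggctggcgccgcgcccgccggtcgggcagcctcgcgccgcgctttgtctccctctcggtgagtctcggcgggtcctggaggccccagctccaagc
Mt1 (chr8:94178889-94179118, forward strand): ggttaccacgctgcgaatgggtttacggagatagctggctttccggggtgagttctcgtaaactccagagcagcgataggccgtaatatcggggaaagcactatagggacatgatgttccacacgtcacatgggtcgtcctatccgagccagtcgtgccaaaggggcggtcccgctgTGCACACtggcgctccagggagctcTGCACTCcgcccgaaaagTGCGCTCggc
Msmo1 (chr8:64733549-64733778, reverse strand): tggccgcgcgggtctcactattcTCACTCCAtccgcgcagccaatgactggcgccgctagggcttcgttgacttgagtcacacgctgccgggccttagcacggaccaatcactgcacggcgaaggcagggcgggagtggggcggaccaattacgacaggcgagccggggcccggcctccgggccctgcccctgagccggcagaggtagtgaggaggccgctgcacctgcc
Of the 9989 tested genes with a promoter in the table, 3.38% held the full cyclic AMP element, 6.27% the STAT site, 56.6% the metal core and 3.30% the sterol element. Over all 27025 symbols with a promoter the shares were 1.91%, 7.31%, 46.1% and 3.79%. Of the called members, the full cyclic AMP element was found in 1 of 5 with a promoter in the table for the CREB list, the STAT site in 1 of 8 for the interleukin-6 list, the metal core in 2 of 2 for the zinc list (Mt1 and Slc39a10) and the sterol element in 1 of 3 for the cholesterol list. Only 76.7% of the 1012 called genes matched a promoter, so a comparison of motif shares over all called genes would be void and is not given. A match is a string of letters and was not tested as a binding site.

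Socs3 and Mt1 faded, while Dusp1, a phosphatase of MAP kinases, fell without a call at 4 h. Dusp1 went from 732 to 508 CPM on average (-0.53 ± 0.12, adjusted p = 0.0111). Its difference from PBS was 0.06 ± 0.12 at 4 h and -0.33 ± 0.12 at 8 h.

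The gene lists were chosen with earlier results of these data known, so a list's share of calls may reflect that choice. Each list count between the times stands beside the 3.05% of all genes that fell and the 4.20% that rose. Known targets of cyclic AMP and CREB fell in part: 6 of 21 tested fell and 0 rose. The list median was -0.46 after CGRP and -0.09 after PBS. The 6 were Crem, Pde10a, Nr4a3, Gal, Dusp1 and Fosb, and the Fosb call was lost without CGRP 4 h replicate 2 or CGRP 8 h replicate 2 or 3. Crem, which encodes repressors of CREB that close the cyclic AMP loop, held 32.5, 27.2, 30.9 and 27.9 CPM at 4 h and 14.96, 9.92, 14.4 and 10.9 at 8 h. Every 8 h library was below every 4 h library (log2 fold change -1.24 ± 0.17, adjusted p = 9.30e-05), and the change after PBS was -0.03 ± 0.18. The time changes of Crem differed between CGRP and PBS (-1.20 ± 0.25, adjusted p = 0.0187). Pde10a, a phosphodiesterase that degrades cyclic AMP, fell from 29.8 ± 1.66 to 15.01 ± 1.97 CPM (-0.99 ± 0.15) and ended below PBS at 8 h (-0.58 ± 0.15, adjusted p = 0.0197). Nr4a3, an orphan nuclear receptor, held 20.1 CPM in CGRP 4 h replicate 4 and 6.41 to 9.30 in the other 3, against 2.33 to 4.28 at 8 h (-1.73 ± 0.39, adjusted p = 0.00714, and 0.0578 without that replicate).

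Most components that make and carry the cyclic AMP signal had no call. Of 30 tested, 24 were not called, 5 rose and 1 fell, with medians of 0.11 after CGRP and 0.00 after PBS. Adcy7, an adenylyl cyclase, rose from 51.5 to 108 CPM (1.07 ± 0.14, adjusted p = 9.12e-05), with a difference from PBS of -0.63 ± 0.14 at 4 h and 0.02 ± 0.14 at 8 h. The anchoring protein gene Akap12 (0.64 ± 0.10) and the inhibitory G protein gene Gnai2 (0.45 ± 0.09) also recovered. Adcy5, another adenylyl cyclase, rose from 14.4, 16.7, 13.9 and 15.4 to 19.3, 29.3, 30.8 and 21.3 CPM. Adcy5 had no call against PBS at 4 h (0.16 ± 0.17, adjusted p = 0.585) and was above it at 8 h (0.99 ± 0.17, adjusted p = 9.06e-04). Grk5, a kinase that desensitises receptors, fell from 38.7 to 23.9 CPM (-0.70 ± 0.15) and stayed above PBS at 8 h (0.60 ± 0.15, adjusted p = 0.0182).

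Immediate early genes are the first transcribed after a stimulus. Of these, 8 of 30 fell and 0 rose (median -0.37, and -0.14 after PBS), beside 3.05% and 4.20% of all genes. They divided by their 4 h state. Atf3, Nr4a3, Socs3 and Zfp36 faded, whereas Fos, Fosb, Jun and Dusp1 fell with no call against PBS at 4 h. Atf3, a stress-induced repressor, held 26.6, 25.8, 26.1 and 33.4 CPM at 4 h and 8.997, 8.41, 9.69 and 6.12 at 8 h (-1.74 ± 0.17, adjusted p = 8.19e-07), a fall that exceeded the one after PBS (difference -1.17 ± 0.24, adjusted p = 0.0187). Fos, a subunit of AP-1, fell from 400 to 222 CPM on average (-0.85 ± 0.18, adjusted p = 0.00810), and after PBS the estimate was -0.65 ± 0.18 with no call (adjusted p = 0.117).

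**Figure D2:**
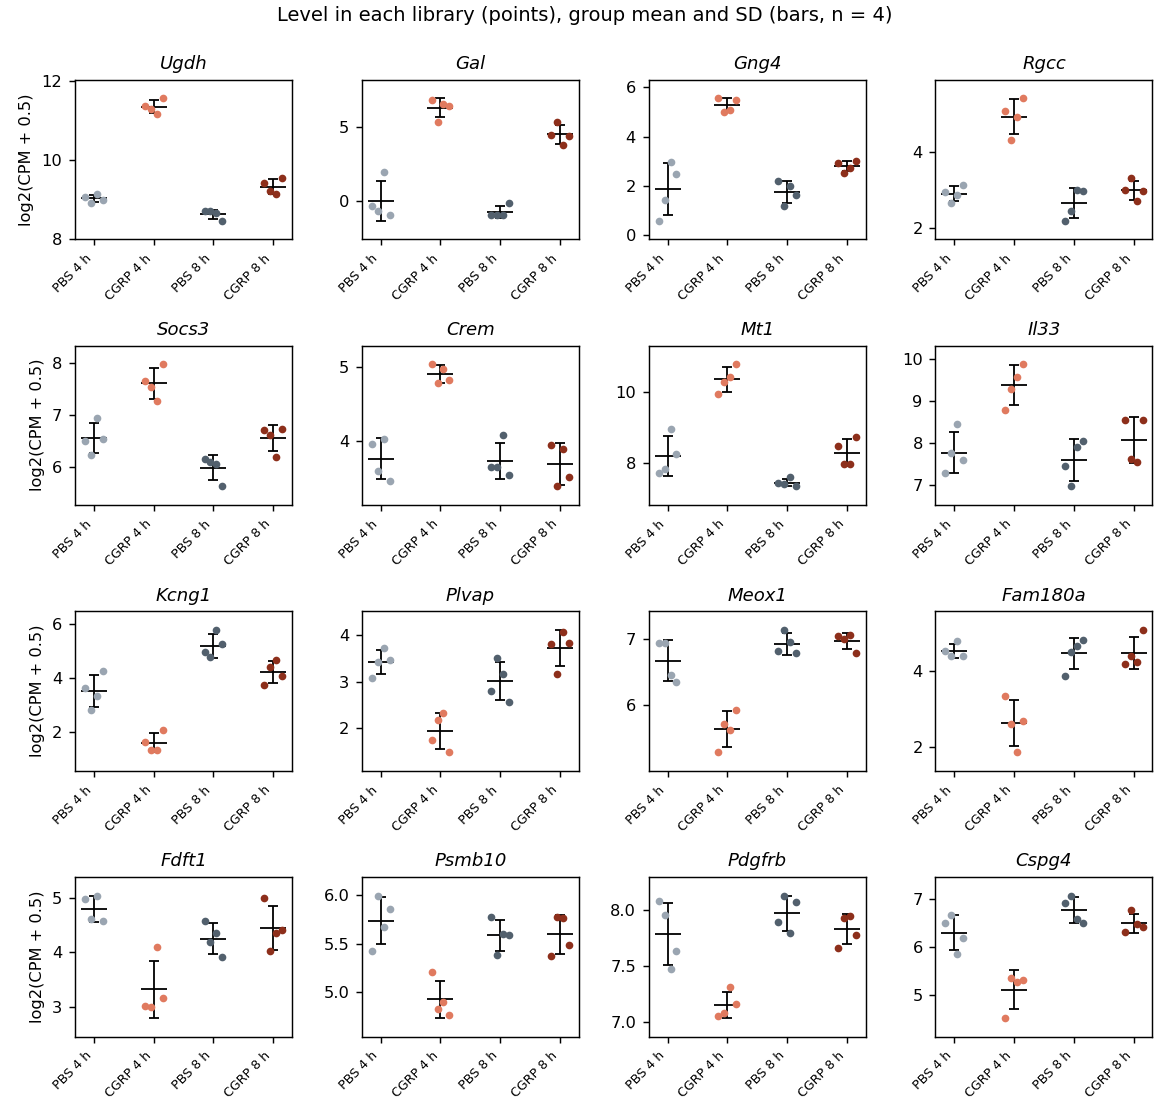
Each panel shows 1 gene, with log2(CPM + 0.5) on the vertical axis and the 4 groups on the horizontal axis. Points are libraries, and bars give the mean and SD on that scale (n = 4). Ugdh, Gng4, Rgcc, Crem and Mt1 are highest at CGRP 4 h, while Kcng1, Plvap, Meox1, Fam180a and Pdgfrb are lowest there.

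Interleukin-6 signalling through STAT3 is a cytokine route to acute-phase proteins. Among the response lists, chosen with earlier results of these data known, its genes had the largest share of falls. Of 17 tested, 8 fell and 0 rose (median -0.44, and -0.08 after PBS), beside 3.05% and 4.20% of all genes. Receptor and signalling parts were among them: Il6ra, the receptor chain for interleukin-6, Osmr, the oncostatin M receptor, Il6st, their common chain, Jak1 and Stat3. Stat3 held 258, 262, 274 and 321 CPM at 4 h and 148, 173, 176 and 192 at 8 h, with no overlap (-0.70 ± 0.10, adjusted p = 1.13e-04). The change after PBS was 0.03 ± 0.10, and the difference was called (-0.72 ± 0.14, adjusted p = 0.0105). Il6ra fell from 94.9, 65.4, 60.9 and 65.3 to 39.2, 40.4, 38.6 and 34.7 CPM (-0.90 ± 0.16), again unlike PBS (difference -1.06 ± 0.23, adjusted p = 0.0251). Socs3, the feedback inhibitor whose promoter is shown above, fell from 201, 186, 153 and 253 to 104, 97.7, 72.7 and 106 CPM (-1.06 ± 0.17, adjusted p = 7.94e-04). Its change after PBS was -0.58 ± 0.17 without a call (adjusted p = 0.130), the difference was not called (adjusted p = 0.377), and it remained above PBS at 8 h (0.59 ± 0.17, adjusted p = 0.0402).

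Acute-phase genes, induced by that route, had 5 of 11 lower and 0 higher (median -0.74, and -0.22 after PBS). Steap4, a metalloreductase, fell from 1191, 1617, 1588 and 1882 to 703, 701, 925 and 829 CPM (-0.99 ± 0.14, adjusted p = 1.61e-04). Lcn2, which binds iron-carrying siderophores, fell from 8.23 ± 3.39 to 1.83 ± 1.36 CPM (-2.14 ± 0.43, adjusted p = 0.00318), with 3.85 CPM in CGRP 8 h replicate 3 and 0.910 to 1.38 in the others. Haptoglobin (Hp) had the lowest fold change of the named genes, from 11.5 ± 2.20 to 0.438 ± 0.540 CPM, but its adjusted p of 0.0461 passed 0.05 on leaving out any 1 of the 8 CGRP libraries (0.0592 to 0.128). Hp had no call against PBS at 4 h. In PBS 4 h replicates 1 to 4 it held 12, 93, 151 and 4 counts. Over the PBS 8 h libraries it held 34, of which 32 were in replicate 2. The count of fallen acute-phase genes was 3 without any 1 CGRP library other than 4 h replicate 1. Of the NF-kB target list 5 of 26 fell and 0 rose, with 2 calls left without CGRP 4 h replicate 4 and 3 without CGRP 8 h replicate 1 or 2. Among them Tnfaip6, a hyaluronan-binding protein, fell from 77.1, 106, 82.2 and 220 to 38.8, 44.4, 38.3 and 46.3 CPM (-1.53 ± 0.27, adjusted p = 0.00339).

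Complement genes fell in part with PBS. Of 17 tested 4 fell and 0 rose after CGRP (2 without CGRP 4 h replicate 2), and 1 fell after PBS. C4b went from 142 to 72.3 CPM (-0.97 ± 0.21, adjusted p = 0.0112) and had no call against PBS at either time (0.07 ± 0.21 and -0.10 ± 0.21), as was the case for C3.

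The enzymes that supply UDP-sugars for hyaluronan and proteoglycan chains included Ugdh, the gene with the smallest adjusted p of all 13949. Of 21 tested 5 fell and 0 rose, and all 5 (Ugdh, Uap1, Gfpt2, Pgm3 and Tnfaip6) had been higher at 4 h. The list median was -0.12, and -0.30 after PBS. Ugdh (chr5:65413221-65435949 on GRCm38), which makes UDP-glucuronate, held 2615, 2503, 2282 and 3021 CPM at 4 h and 680, 587, 561 and 745 at 8 h. The lowest 4 h library was more than 3 times the highest 8 h one, and the log2 fold change was -2.02 ± 0.10 (adjusted p = 5.84e-12). After PBS the means were 520 and 395 CPM with no call (-0.40 ± 0.10, adjusted p = 0.0629), and the time changes differed (-1.62 ± 0.14, adjusted p = 4.28e-07). Ugdh was still above PBS at 8 h (0.70 ± 0.10, adjusted p = 1.21e-04). Gfpt2, the first enzyme of the hexosamine route, fell from 1474, 1194, 931 and 1810 to 656, 604, 321 and 497 CPM (-1.38 ± 0.22). Its difference from PBS was 1.42 ± 0.22 at 4 h and -0.02 ± 0.22 at 8 h. Uap1, which makes UDP-N-acetylglucosamine, fell from 1844, 1458, 1193 and 2366 to 686, 747, 538 and 704 CPM (-1.36 ± 0.17) and stayed above PBS (0.79 ± 0.17, adjusted p = 0.00808).

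Zinc-handling genes had 3 of 17 lower and 0 higher, all 3 fading. Metallothionein 1 (Mt1), a zinc-binding protein whose promoter carries the metal cores printed above, held 988, 1227, 1351 and 1759 CPM at 4 h and 357, 250, 248 and 421 at 8 h (-2.06 ± 0.28, adjusted p = 6.85e-04). The PBS means were 309 and 174 CPM with no call (adjusted p = 0.210), and neither the difference in time changes (adjusted p = 0.148) nor that from PBS at 8 h (0.87 ± 0.27, adjusted p = 0.0675) was called. The importer gene Slc39a10 fell from 27.7 to 17.6 CPM (-0.65 ± 0.16).

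Against PBS, 13 of 29 heat shock genes, whose products refold proteins, were higher and 1 lower at 4 h. At 8 h 9 were higher and 0 lower, and all 9 were higher at both times. The list medians were 0.45 and 0.28. Without the 4 libraries with the most detected genes 16 and 0 were higher, with medians of 0.54 and 0.20. Between the times 6 of 29 fell and 0 rose (median -0.26, and -0.18 after PBS), beside 3.05% and 4.20% of all genes. This count moved with single libraries, with 2 calls without CGRP 4 h replicate 1, 3 without CGRP 4 h replicate 4 or CGRP 8 h replicate 2 or 3, and 10 without CGRP 4 h replicate 3. Hspa1a, an inducible HSP70, fell from 109, 83.8, 69.7 and 102 to 46.7, 27.8, 41.2 and 37.6 CPM (-1.25 ± 0.25, adjusted p = 0.00573), and after PBS the estimate was -0.93 ± 0.25 with no call.

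Few genes of amino acid supply and transfer RNA charging under the factor ATF4 were called between the times. Against PBS, 13 of 35 were higher and 1 lower at 4 h, and 12 were higher and 0 lower at 8 h. Higher at both times were 7, and the list medians were 0.30 and 0.24. Without the 4 libraries with the most detected genes 10 and 2 were higher. Of 35 tested 3 fell and 1 rose, beside 3.05% and 4.20% of all genes, with 0 risers left on leaving out any of 6 CGRP libraries (4 h replicates 1, 3 and 4 and 8 h replicates 1, 2 and 3). Eprs, the glutamyl-prolyl-transfer RNA synthetase, held 419, 451, 484 and 508 CPM at 4 h and 193, 148, 161 and 174 at 8 h (-1.46 ± 0.10, adjusted p = 2.59e-09). It had been 1.496 ± 0.10 above PBS and was 0.08 ± 0.10 above it at 8 h, and its time change after PBS was -0.04 ± 0.10. Trib3, a pseudokinase induced by ATF4, fell from 12.4 to 5.67 CPM (-1.13 ± 0.26, adjusted p = 0.00785).

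Over all genes 7.84% were higher after CGRP than after PBS at 4 h and 5.00% at 8 h. Of 48 ribosome biogenesis genes tested, 44 were higher at 4 h and 23 at 8 h, 22 of them at both times. The list medians were 0.85 and 0.55. Without the 4 libraries with the most detected genes, among them PBS 8 h replicates 1 and 4, the counts were 35 and 2, with medians of 0.91 and 0.61. Between the times 4 fell and 0 rose (median -0.29, and -0.10 after PBS). That count ran from 1, without any of CGRP 4 h replicates 1, 2 and 4 and 8 h replicates 2 and 3, to 9 without 8 h replicate 1, and it was 7 without 4 h replicate 3. Polr1a, the large subunit of RNA polymerase I, fell from 51.8 to 26.1 CPM (-0.99 ± 0.16, adjusted p = 3.68e-04). For the 80 ribosomal protein genes 0 were called in either direction between the times by edgeR's test, 0 by DESeq2 and 0 by limma-voom (median 0.01, 1 at an unadjusted p under 0.05), and 8 were higher after CGRP at 4 h and 22 at 8 h (6 and 0 without the 4 libraries). Their median difference from PBS at 8 h was 0.21, and 0.19 without the 4 libraries. Of 32 proteasome genes 1 rose (Psmb3), while 5 were higher than PBS at 4 h and 20 at 8 h (6 and 5 without the 4 libraries), with medians of 0.16 and 0.32. The Psmb3 call was lost on leaving out any CGRP library except 4 h replicate 2.

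**Figure D3:**
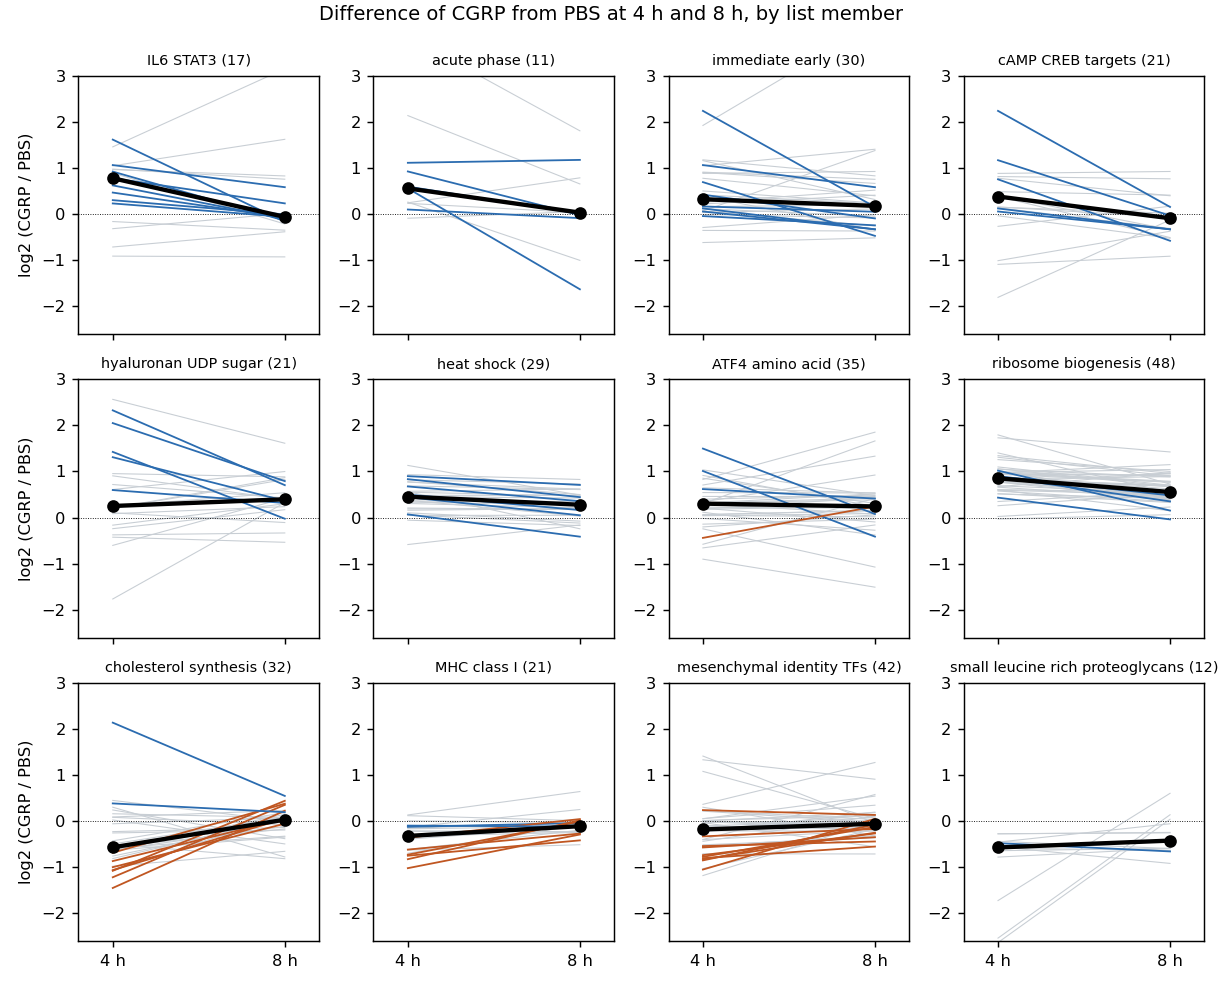
Each thin line joins the log2 ratio of CGRP to PBS at 4 h and at 8 h for 1 member of a list, blue where the gene fell and orange where it rose between the times after CGRP, grey where it had no call, and the thick line joins the list medians. The medians of the interleukin-6 and CREB lists go from above 0 to near 0, that of cholesterol synthesis from -0.57 to 0.03, and that of ribosome biogenesis from 0.85 to 0.55. In all, 5 lines run past the axes.

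Outside these lists, several genes had large falls. Gng4, a G protein gamma subunit, held 46.4, 31.8, 33.3 and 44.4 CPM at 4 h and 7.08, 5.28, 6.14 and 7.49 at 8 h (-2.59 ± 0.33, adjusted p = 9.12e-05), against -0.39 ± 0.41 after PBS (difference -2.20 ± 0.53, adjusted p = 0.0481). Rgcc, a regulator of the cell cycle, fell from 33.1, 19.4, 30.2 and 42.4 to 7.48, 9.49, 6.04 and 7.34 CPM (-2.04 ± 0.23, adjusted p = 4.59e-06). The vitamin D receptor gene Vdr fell from 9.95, 7.86, 16.6 and 15.4 to 1.72, 2.48, 2.19 and 1.68 CPM (-2.61 ± 0.42, adjusted p = 3.89e-04). Vdr was near the floor after PBS, with 32 counts over the 4 libraries at 4 h and 6 at 8 h. The libraries overlapped, with 9, 9, 12 and 2 counts at 4 h and 0, 2, 0 and 4 at 8 h. Vdr stayed above PBS at 8 h, where the PBS mean was 0.208 CPM. Emd, which encodes the nuclear envelope protein emerin, held 33.4, 41.6, 41.5 and 39.8 CPM at 4 h and 12.1, 13.6, 8.54 and 11.8 at 8 h, with PBS means of 10.8 and 11.9 (difference in time changes -1.89 ± 0.24, adjusted p = 1.77e-04). Of the 15 lowest fold changes named, 11 were fading genes, beside 54.5% of all genes that fell. The difference in time changes was called for 4 of the 15. Of these 15, 5 were still called against PBS at 8 h.

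Growth factors moved in both directions, with 4 of 24 higher and 5 lower. Fgf10, which acts on epithelia and stroma through its receptor, fell from 26.6, 27.7, 25.4 and 22.7 to 8.997, 11.4, 9.998 and 10.6 CPM (-1.32 ± 0.21, adjusted p = 3.11e-04) and had been 1.15 ± 0.21 above PBS. Igf1r, the receptor of insulin-like growth factor 1, had no call against PBS at 4 h (0.04 ± 0.13, adjusted p = 0.881) and was below it at 8 h (-0.64 ± 0.14, adjusted p = 0.00525), after a fall from 45.7 to 30.6 CPM. Without CGRP 4 h replicate 1 or CGRP 8 h replicate 2 the fallen were 3, and the risen were 2 without any of 6 CGRP libraries (4 h replicates 1, 3 and 4 and 8 h replicates 1, 2 and 3). Vegfd, a growth factor of lymphatic vessels, fell from 47.9 to 16.3 CPM (-1.56 ± 0.21, adjusted p = 9.30e-05), more than after PBS (difference -1.22 ± 0.30, adjusted p = 0.0498).

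Among the genes that rose, the cholesterol list had the highest median of the response lists (0.34, and -0.07 after PBS). Of 32 tested, 7 rose and 2 fell after CGRP, beside 4.20% and 3.05% of all genes, and 0 were called after PBS. All 7, among them Fdft1, Stard4, Msmo1, Lss, Insig1 and Abcg1, had been lower at 4 h, when 14 of 32 were lower and 2 higher, and at 8 h 1 was lower and 1 higher. The risen count was 3 without CGRP 4 h replicate 1 and 4 without CGRP 4 h replicate 4 or CGRP 8 h replicate 1. Fdft1, squalene synthase, which makes the first sterol-specific intermediate, held 7.62, 7.499, 16.7 and 8.51 CPM at 4 h and 31.3, 15.9, 19.9 and 20.8 at 8 h (1.13 ± 0.25, adjusted p = 0.00660). The high 4 h library, replicate 3, overlapped with the lowest 8 h library, and the PBS means went from 27.6 to 18.9 (difference in time changes 1.67 ± 0.34, adjusted p = 0.0187). Msmo1, a sterol oxidase named here for its motif after its values were seen, rose from 29.1 to 46.8 CPM (0.69 ± 0.18, adjusted p = 0.0220). Pmvk, phosphomevalonate kinase of the same route, moved against the list: it fell from 38.4, 61.9, 59.9 and 55.9 to 18.8, 23.9, 15.8 and 16.2 CPM (-1.53 ± 0.16, adjusted p = 2.50e-06) and had been higher than PBS at 4 h (2.13 ± 0.17).

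Transcription factors of mesenchymal identity rose in part: 10 of 42 rose and 0 fell, beside 4.20% and 3.05% of all genes. The list median was 0.14, and -0.01 after PBS, and 13 had been lower at 4 h, beside 8.37% of all genes. The 10 were Meox1, Ebf1, Nfix, Osr1, Nfia, Gli2, Gli3, Hic1, Gli1 and Meox2, of which all but Gli1 and Hic1 were recovering genes. The count was 4 without CGRP 4 h replicate 1 or CGRP 8 h replicate 3, 5 without CGRP 8 h replicate 2 and 6 without CGRP 4 h replicate 4. Meox1, a homeobox factor of somite-derived mesenchyme, held 38.4, 52.1, 48.9 and 60.1 CPM at 4 h and 132, 128, 133 and 111 at 8 h (1.34 ± 0.14, adjusted p = 3.69e-06), unlike PBS (0.24 ± 0.14, difference 1.10 ± 0.20, adjusted p = 0.00637). Ebf1, a factor of stromal and adipocyte progenitors, rose from 258, 242, 264 and 226 to 358, 413, 375 and 392 CPM (0.63 ± 0.07, adjusted p = 6.05e-06). Osr1, which marks fibro-adipogenic cells, rose from 84.1 to 120 CPM (0.51 ± 0.11) and its difference from PBS was -0.74 ± 0.11 at 4 h and -0.27 ± 0.11 at 8 h.

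Surface genes of mSC divided, with 6 of 27 higher and 6 lower (3 lower without CGRP 8 h replicate 1). All 6 risers had been below PBS at 4 h. Pdgfrb, a receptor for platelet-derived growth factor, held 132, 135, 158 and 143 CPM at 4 h and 202, 243, 246 and 219 at 8 h (0.68 ± 0.11, adjusted p = 6.28e-04). Cspg4, the proteoglycan NG2, held 22.3, 40.2, 38.2 and 39.1 CPM at 4 h and 78.1, 108, 88.2 and 84.1 at 8 h (1.37 ± 0.20, adjusted p = 4.74e-04). Dpp4, a peptidase found on a subset of stromal cells, fell from 225 to 158 CPM (-0.51 ± 0.09) and was below PBS at 8 h (-0.40 ± 0.09, adjusted p = 0.0104) with no call at 4 h (-0.04 ± 0.09). Cspg4 is also a pericyte marker. Of the 7 pericyte and smooth muscle markers tested 2 rose, Cspg4 and Notch3, and Notch3 rose after PBS too (1.09 ± 0.29 and 1.32 ± 0.28). The Notch3 call after CGRP was lost without CGRP 4 h replicate 1 or 4 or CGRP 8 h replicate 1 or 3. The 6 tenocyte markers, mostly Thbs4, summed to 284 to 832 CPM at 4 h and 822 to 1456 at 8 h. After PBS the sums were 681 to 1508 and 612 to 1214. The group mean was lowest at CGRP 4 h (646 CPM). CGRP 4 h replicate 1 held the lowest sum (284), and the other CGRP 4 h libraries, at 681 to 832, overlapped with those of PBS. Of 5 markers tested 0 were called by edgeR (1 at an unadjusted p under 0.05). Whether the share of cell types in the sorted cells moved with these genes was not tested. In sorted bulk cells, fewer cells of a type and less RNA per cell cannot be told apart.

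Class I antigen presentation had 6 of 21 higher and 2 lower (median 0.04, and -0.16 after PBS). The 6 risers (Psmb8, Psmb9, Psmb10, Psme2, Tap2 and H2-M3) had all been lower at 4 h, and 4 of them belong to the immunoproteasome or its activator. There were 3 without CGRP 4 h replicate 1, and the fallen ones, H2-K1 and Pdia3, were 0 without CGRP 4 h replicate 2 or CGRP 8 h replicate 2, 3 or 4 and 1 without CGRP 4 h replicate 1 or CGRP 8 h replicate 1. Psmb10, a catalytic subunit, held 36.4, 27.9, 29.3 and 26.7 CPM at 4 h and 40.9, 54.1, 53.7 and 44.2 at 8 h (0.68 ± 0.14, adjusted p = 0.00299). The change after PBS was -0.16 ± 0.13 and the difference was called (0.84 ± 0.19, adjusted p = 0.0280). Psmb9, another catalytic subunit, held 8.73, 10.3, 8.42 and 4.65 CPM at 4 h and 14.6, 13.4, 15.6 and 12.1 at 8 h (0.79 ± 0.19, adjusted p = 0.0140). Of the interferon response genes 3 of 40 fell and 0 rose after CGRP, beside 3.05% and 4.20% of all genes (0 fell without CGRP 8 h replicate 2). Their list median was -0.17 after CGRP and -0.34 after PBS. The median difference of CGRP from PBS was -0.24 at 4 h and -0.06 at 8 h.

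The largest recoveries were in genes of varied function. Kcng1 held 2.64, 2.06, 2.01 and 3.72 CPM at 4 h and 12.9, 20.9, 25.3 and 16.4 at 8 h, and was still below PBS at 8 h (-0.99 ± 0.28, adjusted p = 0.0313). Plvap, a protein of vessel fenestrae that was found here at a low level, rose from 2.84, 3.99, 4.52 and 2.26 to 13.6, 8.41, 16.5 and 13.8 CPM (1.94 ± 0.27, adjusted p = 9.12e-05). After PBS the estimate for Plvap was -0.42 ± 0.26, and the difference in time changes was 2.36 ± 0.37 (adjusted p = 0.00155). Plvap is a gene of endothelium. Of the 4 endothelial markers tested 0 were called: Tek, most of the marker sum, had group means of 103 and 90.6 CPM, Ptprb 0.853 and 2.07 (adjusted p = 0.193), Egfl7 1.11 and 1.23 and Flt1 2.08 and 1.64. Whether endothelial RNA had a part in the Plvap change was not tested. Fam180a rose from 9.65, 5.56, 3.14 and 5.98 to 17.9, 20.7, 18.4 and 33.6 CPM (1.87 ± 0.28, adjusted p = 2.59e-04), against -0.03 ± 0.25 after PBS. P2ry6, a receptor for extracellular UDP, rose from 3.55, 4.23, 3.27 and 5.59 to 8.49, 15.3, 19.8 and 8.41 CPM (1.66 ± 0.27, adjusted p = 4.65e-04), and its difference from PBS was -2.13 ± 0.27 at 4 h and -0.70 ± 0.24 at 8 h, the latter without a call. Adra1a, the alpha-1A adrenergic receptor, rose from 1.46 to 4.48 CPM (1.59 ± 0.32) and was still lower than PBS at 8 h (-1.48 ± 0.28, adjusted p = 0.00217). Its counts were also higher at 8 h than at 4 h after PBS, with 363 over the PBS 8 h libraries and 215 over those of 4 h. Of the 15 highest fold changes by the naming rule 12 were recovering genes, beside 69.1% of all genes that rose. The difference in time changes was called for 2 of the 15, and 1, Kcng1, was still called against PBS at 8 h.

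Some genes moved at 8 h that had no call at 4 h. Of the 180 such risers 28 were above PBS at 8 h, and of the 191 such fallen genes 33 were below it. Wisp2, a matricellular protein, rose from 94.4, 125, 98.1 and 143 to 156, 223, 223 and 221 CPM (0.84 ± 0.14, adjusted p = 8.56e-04), without a call against PBS at either time (-0.37 ± 0.14 and 0.39 ± 0.14). Mif, a cytokine, was the gene that rose further. It went from 58.9 to 89.2 CPM (0.60 ± 0.13, adjusted p = 0.00573), with a difference from PBS of 0.39 ± 0.13 at 4 h and 1.12 ± 0.13 at 8 h. Ccdc81 had a difference in time changes (2.74 ± 0.62, adjusted p = 0.0280). It held 8.09 ± 2.47 and 7.76 ± 1.87 CPM after CGRP and 4.20 ± 1.87 and 0.573 ± 0.561 after PBS.

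Matrix lists had few calls each in number, beside 4.20% of all genes that rose and 3.05% that fell. Such small counts do not show that matrix genes changed less often than other genes. Of 28 fibrillar collagen and assembly genes 1 fell and 0 rose (median -0.09, and -0.16 after PBS). Of 17 elastic fibre genes Efemp1 fell (-0.58 ± 0.11) and Ltbp4, which binds latent transforming growth factor beta, rose (0.53 ± 0.12). Of 20 basement membrane genes Col4a6, a chain of type IV collagen, fell (-1.26 ± 0.29), and Smoc2 (0.29 ± 0.08) and Vwa1 (0.58 ± 0.12) rose. Of 19 matricellular genes Fn1, fibronectin, fell from 2334 to 1650 CPM (-0.50 ± 0.10), and Wisp2 and Sparcl1 (0.40 ± 0.09) rose. Basement membrane risers were 1 without CGRP 4 h replicate 1 or 4 or any CGRP 8 h replicate. Elastic fibre risers were 3 without CGRP 4 h replicate 2, and the elastic fibre and matricellular fallers 2 each without CGRP 8 h replicate 2, as were the basement membrane fallers without CGRP 8 h replicate 4. Of 12 small leucine-rich proteoglycan genes 1 fell, while 8 were lower than PBS at 4 h and 6 at 8 h (4 and 3 without the 4 libraries with the most detected genes). Of 49 genes of oxidative phosphorylation 1 rose and 1 fell, and of 47 cell cycle genes 1 fell. These single calls moved with 1 library: the collagen call was lost without CGRP 4 h replicate 1 or CGRP 8 h replicate 1, 2 or 4, the proteoglycan call without CGRP 4 h replicate 2 or CGRP 8 h replicate 1 or 2, and the riser of oxidative phosphorylation without CGRP 4 h replicate 1 or 4 or CGRP 8 h replicate 2 or 3, while 2 cell cycle genes fell without CGRP 4 h replicate 3 or CGRP 8 h replicate 4. The 15 mitochondrially encoded genes had 0 calls by edgeR, 0 by DESeq2 and 0 by limma-voom, with 0 at an unadjusted p under 0.05 and a median of 0.09. The circadian list had 3 of 25 higher and 2 lower after CGRP and 1 higher after PBS. The risen were 1 without CGRP 4 h replicate 1 or CGRP 8 h replicate 1, 2 or 3, and the fallen 1 without CGRP 4 h replicate 1 or CGRP 8 h replicate 1.

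**Figure D4:**
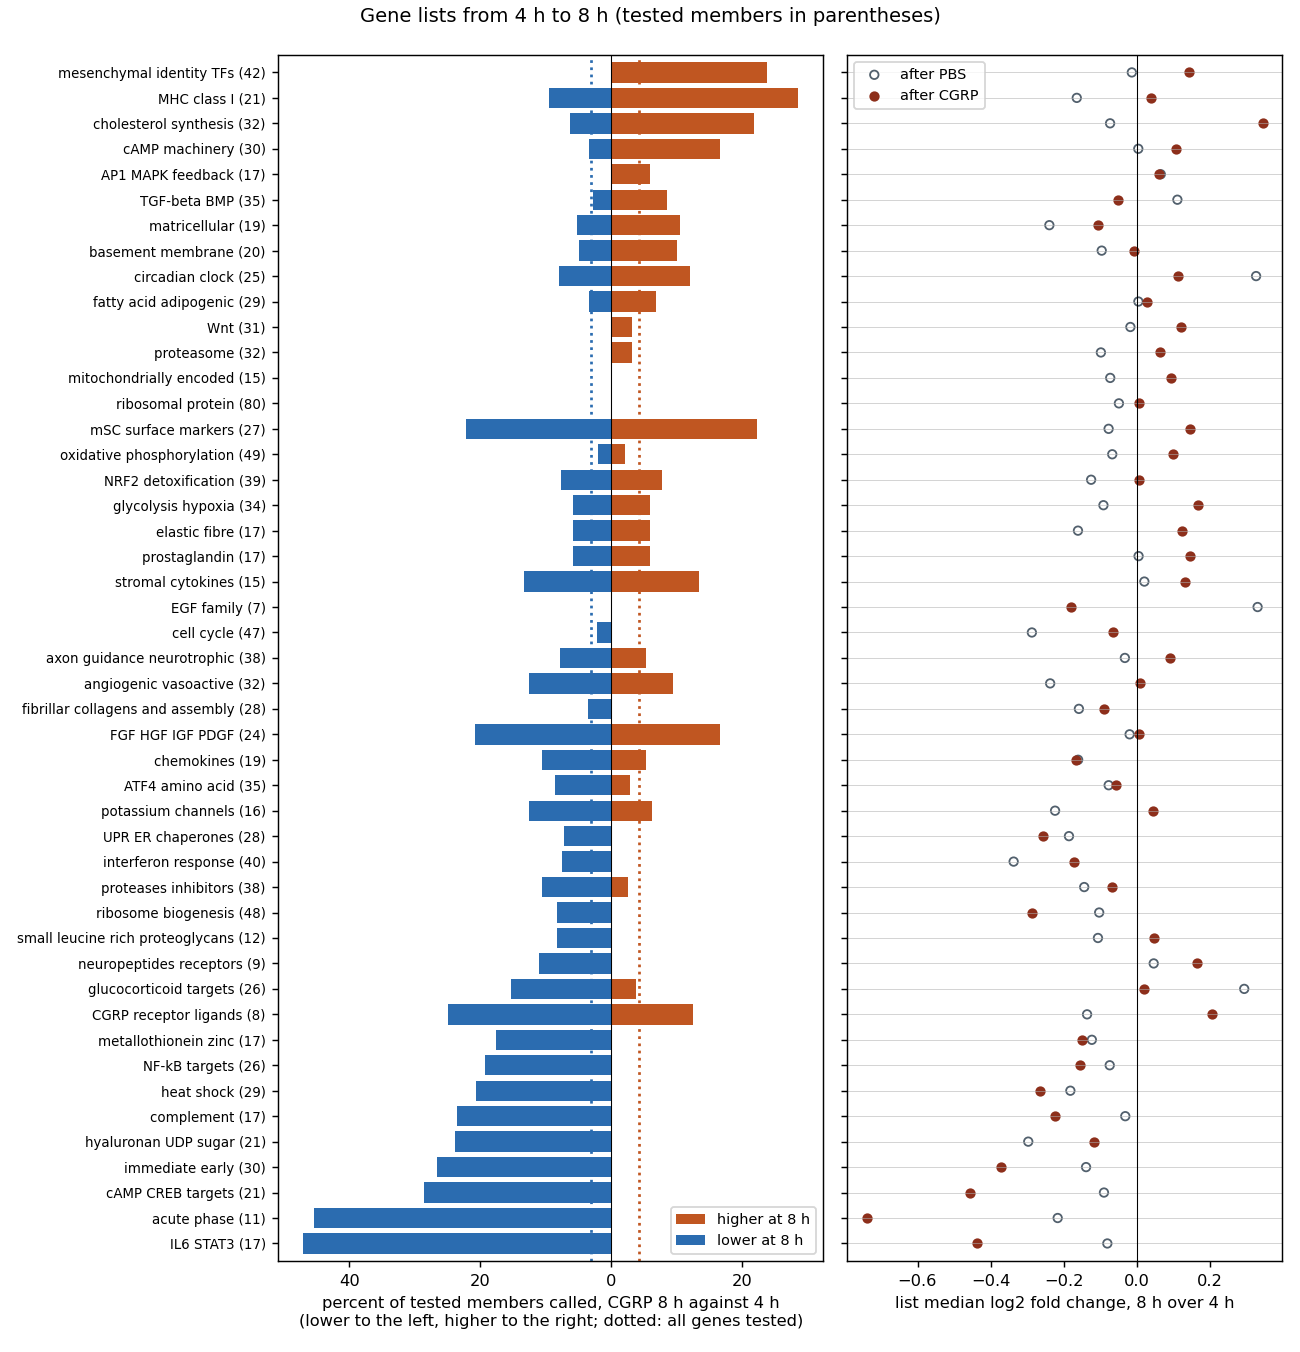
Left, bars give the percent of each list's tested members that were lower (blue, to the left) or higher (orange, to the right) at 8 h than at 4 h after CGRP, with dotted lines at the 3.05% and 4.20% of all genes. Right, points give the list's median log2 fold change of 8 h over 4 h after CGRP (filled) and after PBS (open). Lists are ordered from the mesenchymal transcription factors (10 of 42 higher, 0 lower) at the top to the interleukin-6 list (8 of 17 lower, 0 higher) at the bottom.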

How the data were processed

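RNA from 1000 sorted cells per library was sequenced from both ends (25 bases each) in 16 libraries. The authors deposited 1 table of whole, raw read counts per gene symbol; per the submitters' processing notes STAR 2.5.4 and featureCounts (version not given) were used with mm10, in a role and order not recorded. The library kit does not mark strand, so overlapping and antisense genes cannot be told apart, and reads are PCR copies without molecular identifiers. Groups came from the sample titles.

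Genes were kept with edgeR's filterByExpr (13949 of 52997), scaled with TMM and fitted with edgeR 4.0.16 (R 4.3.3) by the quasi-likelihood test over all 4 groups (4 libraries each, 12 residual degrees of freedom, common biological coefficient of variation 17.4%), without a replicate term. All adjusted p-values are Benjamini-Hochberg values over all 13949 genes from this test, with a call under 0.05. The same model gave the PBS time change, the difference of the time changes, and CGRP against PBS at each time. CPM use TMM-scaled library sizes, and errors are SE for log2 fold changes and SD for CPM (n = 4). Positions come from GENCODE M21, which held 13687 of the tested symbols. Promoters come from RefSeq.

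Genes were named by rule: the 15 highest and 15 lowest called fold changes with a mean of at least 5 CPM and no overlap between the times, the 8 extremes of the difference and 5 of PBS in each direction, up to 5 called genes per list, and a fixed set of CGRP-related genes. The 47 response and 12 marker lists were chosen with earlier results of these data known. Some genes chosen by the rule are not reported. On simulated counts (13712 genes) the test of the CGRP time change found 26.9% of the genes changed 1.5-fold, 74.2% at 2-fold and 92.4% at 4-fold, and 4.48% of its calls were false. Alternatives were other scalings, filters and fits, DESeq2 1.42.0, limma-voom (limma 3.58.1), a replicate block, leaving out each library and, chosen after seeing the data, leaving out 4 libraries.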

Additional observations from a re-analysis of the deposited data

Results flagged for a closer look

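Of 78 groups of 4 libraries examined, 6 held a library far from the other 3, and chance gives about 1 in 20. Atf3 was at 33.4 CPM in CGRP 4 h replicate 4, against 25.8 to 26.6 in the others. Slc6a12 was at 20.5 CPM in CGRP 4 h replicate 3, against 26.7 to 27.7. Lcn2 was at 3.85 CPM in CGRP 8 h replicate 3, against 0.910 to 1.38. Fdft1 was at 16.7 CPM in CGRP 4 h replicate 3, against 7.499 to 8.51. Cspg4 was at 22.3 CPM in CGRP 4 h replicate 1, against 38.2 to 40.2. The total count was 6373713 in CGRP 8 h replicate 4, against 9087537 to 9600027.

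By the test of the difference itself, the time change after CGRP was above that after PBS for 97 genes and below it for 59. Among the genes described, those with a called negative log2 difference included Ugdh (-1.62), Gfpt2 (-1.45), Uap1 (-1.26), Stat3 (-0.72), Crem (-1.20), Atf3 (-1.17), Gng4 (-2.20), Rgcc (-1.80), Emd (-1.89), Eprs (-1.42) and Pmvk (-1.59). Those with a called positive one included Fdft1 (1.67), Meox1 (1.10), Fam180a (1.90), Plvap (2.36) and Psmb10 (0.84). The difference was called for other genes named above too, among them Il6ra, Pde10a, Vegfd, Ebf1, Msmo1 and Ccdc81.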

How the results depend on the processing

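With 1 library left out, the counts of higher and lower genes ran from 385 to 547 and 281 to 406 for the CGRP time change, 8 to 208 and 7 to 72 for PBS, 47 to 118 and 32 to 105 for the difference, 696 to 1146 and 785 to 1080 for CGRP against PBS at 4 h, and 332 to 802 and 245 to 477 at 8 h. Fading genes ran from 142 to 256 and recovering genes from 265 to 400. DESeq2 gave 178 and 156 genes for PBS and 248 and 179 for the difference. Without a filter on low counts these were 244 and 178, and 256 and 200. limma-voom gave 21 lower genes for PBS. Fitting only the groups compared gave 62 and 69 for PBS. Leaving out the 4 libraries with the most detected genes kept only replicates 2 and 3 of PBS 8 h. There were then 8 lower genes for PBS, 33 and 30 for the difference, and 104 and 87 for CGRP against PBS at 8 h. The cause was not tested. With a replicate block the CGRP time change had 538 higher and 409 lower genes. The same-numbered CGRP libraries' deviations correlated at -0.04 to 0.10 (2 of 4 best with their own number), so no pairing by number was seen. Whether same-numbered libraries shared a collection day was not tested. Of 176 called named genes, 107 kept their call in every setting run, 69 lost it in at least 1, and 0 changed direction. Fitting only the groups compared lost 42 of these calls, and the replicate block 7, among them Gal (adjusted p = 0.110) and Il33 (0.0539). Among named genes without a call, Ccdc81 ranged from -0.24 to 0.084 with 1 library left out and was 0.057 without CGRP 4 h replicate 3, 0.059 without replicate 4 and 0.062 without the 4 libraries, and Calca ranged from -0.36 to 0.94. With 4 libraries a group, changes under 2-fold were often missed in simulated data.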
